A study of Mus musculus with 9 samples.

Results

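The ADAM, ADAMTS and matrix metalloproteinase (MMP) genes and the tissue inhibitors of metalloproteinases (TIMPs) were followed in endothelial cells (ECs) of the normal mouse bone marrow (BM). Members were all rows of the count table whose gene name opened with Adam, Adamts, Mmp or Timp directly before a digit, without pseudogene names, and 1 other matching gene was not analysed here. This gave 79 of 46078 genes, of which 33 were ADAM, 19 ADAMTS, 23 MMP and 4 TIMP rows. Mmp27 took 2 of these rows, so there were 78 distinct symbols. The cells were sorted by flow cytometry as CD45-Ter119-CD31+ cells from the BM of wild type B6 mice described as normal, and the labels split them into Sca-1+ ECs (here Sca-1high) and Sca-1- ECs (here Sca-1low). RNA-seq libraries were made by a full-length, poly(A)-primed cDNA method, 4 from Sca-1high ECs, whose labels end in 7, 13, 15 and 19, and 5 from Sca-1low ECs, whose labels end in 8, 10, 14, 16 and 22. The titles of libraries 13, 10, 14 and 22 carry the mark CD452 or its number, those of 15, 19, 8 and 16 carry wt, and that of 7 carries neither, and the labels do not explain these marks. The comparison asks which of these genes differ between the EC fraction held to line arterioles and the fraction held to line sinusoids. The labels do not say how many mice gave each library or whether libraries came from different mice, so p-values measure only the spread between these libraries.

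MMPs are zinc-dependent proteases that are secreted or held at the cell surface and cut collagens and other matrix proteins. ADAMs are membrane proteins, and those with an active protease domain cut other membrane proteins off the cell surface (shedding), while ADAMTS proteases are secreted and act on proteoglycans, procollagens or von Willebrand factor. TIMPs bind the active site of these enzymes, and in vessels the balance between protease and inhibitor is known to shape basement membrane, junctions and sprouting.

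Counts per library lay between 21581653 and 25959818, and the smallest level taken as detected, 3 counts, was 0.0996 to 0.209 CPM (counts scaled to the library size after TMM). Of the cell type markers, the summed level of 24 endothelial genes was 16560 to 20090 CPM in the Sca-1high libraries and 1357 to 3045 CPM in the Sca-1low libraries. Esam, which was not called, held 303.1 to 2376 CPM of the Sca-1low sums, and without it and Tal1 (lower in Sca-1high ECs) the sums of the other 22 genes were 15370 to 18910 CPM and 395.8 to 997.9 CPM. All 12 arterial genes were higher in Sca-1high ECs, with a sum of 2106 to 3887 CPM against 117.9 to 377.6 CPM. Of 12 sinusoidal genes, 11 were higher and 1 lower, with a sum of 1833 to 2463 CPM against 75.89 to 359.5 CPM. Markers of both vessel types thus lay mostly on the Sca-1high side. All 16 megakaryocyte or platelet genes were lower in Sca-1high ECs, with a sum of 107 to 183 CPM against 26120 to 111100 CPM. In the Sca-1low libraries the markers thus go against the endothelial label, and they are called Sca-1low cells below. Marrow stroma or osteoblast genes, of which 2 of 12 were higher and 3 lower, summed to 718.7 to 3155 CPM in Sca-1high and 3808 to 45030 CPM in Sca-1low libraries, while pericyte or smooth muscle genes (9 of 12 higher) summed to 690.2 to 1701 CPM against 20.3 to 98.1 CPM. No marker of the lists given so far was at 0 in every library of a fraction. The part of these other cell types in the results below was not tested unless a value is given. In bulk libraries, fewer cells of a type and less RNA per cell cannot be told apart. The running numbers at the start of the labels form separate series in the 2 fractions, so a batch along them cannot be told apart from the fraction. With the title mark as a term in the fit, 16 members were called, 12 higher and 4 lower.

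Of the 79 members, 22 had no count in any library and 17 others had counts but did not pass the filter on low counts, which left 40 tested genes. Every p-value given for a gene is two-sided, from the quasi-likelihood test of edgeR, and was adjusted by Benjamini-Hochberg across the whole set of 15937 tested genes. A gene was called where this adjusted p was under 0.05. Of the 40 tested members, 20 were called (50.0%), where 44.8% of all genes tested were called. Of these, 15 were higher in Sca-1high ECs (37.5%, against 23.3% of all genes) and 5 were lower (12.5%, against 21.4%). The levels of 20 members did not overlap between the fractions, a pattern that 43.6% of all genes showed, with Sca-1high above in 15 members (24.8% of all genes) and Sca-1low above in 5 (18.8%). The median log2 fold change was 1.13 over the tested members and 0.07 over all genes. The called share of the members was thus close to that of all genes, and the called members lay more on the Sca-1high side.

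By family, 4 of 11 tested ADAM genes were higher and 2 lower, 6 of 12 ADAMTS genes were higher and 2 lower, 3 of 13 MMP genes were higher and 1 lower, and 2 of 4 TIMP genes were higher with the other two not called. These directions are relative to the bulk of the genes, since TMM sets the typical gene near no change. When libraries were scaled to the summed counts of the 24 endothelial genes instead, the median of all genes moved by -3.40 on the log2 scale. Under that scaling 9 of the 15 higher members kept their sign, and 5 of these (Timp4, Mmp15, Adamts4, Adamts1 and Adam15) kept their call, while 6 (Adam17, Adamts10, Adamts7, Mmp24, Mmp28 and Timp3) changed sign. All 5 lower members stayed lower there, which follows from the negative shift of all genes. With Esam and Tal1 left out of the scaling, an alternative chosen after the values were seen, the median moved by -4.60, Adam12 and Adam4 changed sign too, and of the higher members Timp4, Adamts4 and Adamts1 kept their call. With scaling to all 24 endothelial genes, the called members split into 5 higher and 22 lower. All genes then split into 303 higher and 13100 lower, in place of 3721 higher and 3416 lower. Without Esam and Tal1 these splits were 3 higher to 26 lower and 192 higher to 14283 lower. With no composition factor at all the median moved by 0.35, and 18 members were higher and 4 lower, with 4158 higher and 2431 lower over all genes.

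**Figure D1:**
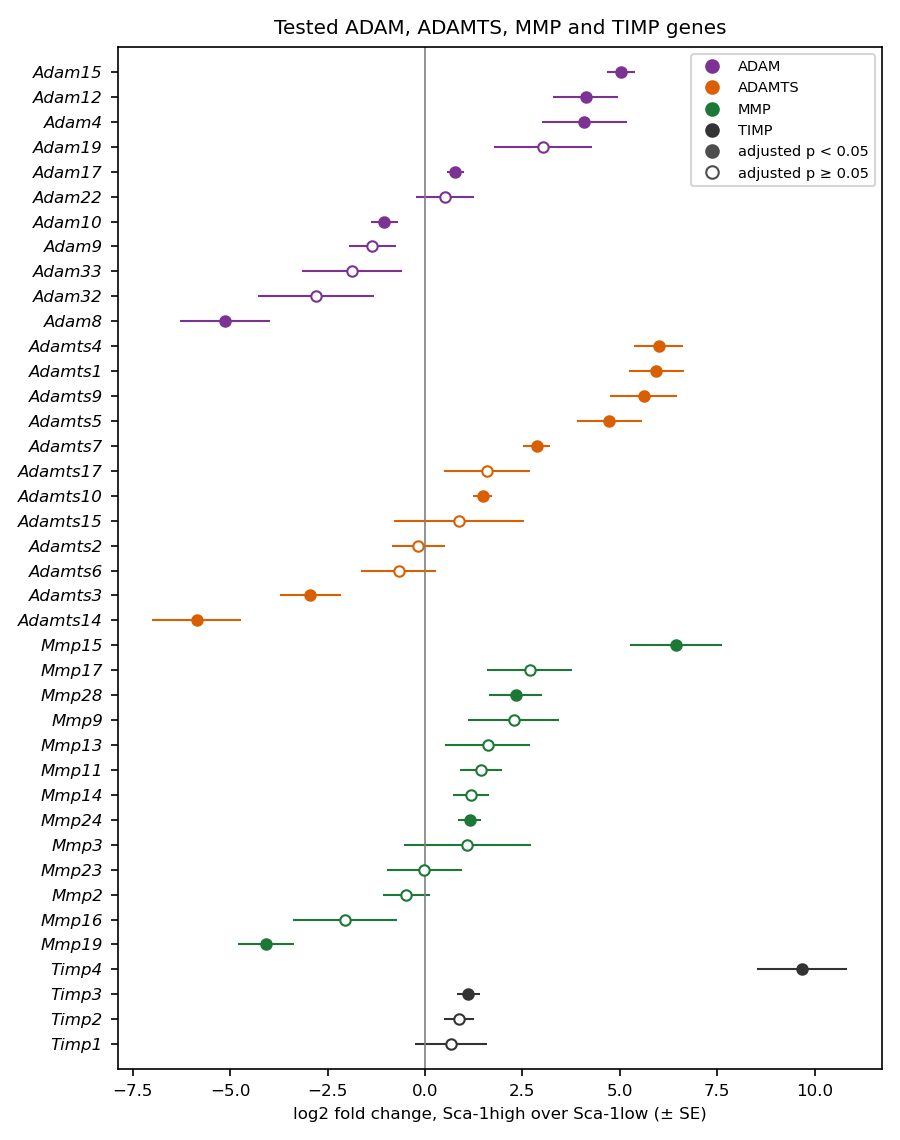
Log2 fold change of the 40 tested members, Sca-1high over Sca-1low (x axis), grouped by family (y axis, 1 gene a row); bars are ± SE and filled points had an adjusted p under 0.05. Timp4 lay farthest to the right at 9.67 and Adamts14 farthest to the left at -5.86; Adam17, Adamts10, Adamts7, Mmp24, Mmp28 and Timp3 change sign when libraries are scaled to endothelial genes, and Adam12 and Adam4 also when Esam and Tal1 are left out of that scaling.

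For 4 of the members that differed most, 120 bases before the annotated start are shown, so that the start regions of 2 genes on the Sca-1high side (Timp4 and Adamts1) can be read beside 2 on the Sca-1low side (Adam8 and Adamts14). They come from RefSeq on GRCm38.p6, are written 5′ to 3′ on the strand of the gene, and were chr6:115252206-115252325, chr16:85803114-85803233, chr7:139992563-139992682 and chr10:61273439-61273558, all on the minus strand. Capitals mark a match to 1 of 6 short motifs.
Timp4: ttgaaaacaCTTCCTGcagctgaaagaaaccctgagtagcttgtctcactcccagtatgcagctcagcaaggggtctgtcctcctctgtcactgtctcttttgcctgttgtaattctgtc
Adamts1: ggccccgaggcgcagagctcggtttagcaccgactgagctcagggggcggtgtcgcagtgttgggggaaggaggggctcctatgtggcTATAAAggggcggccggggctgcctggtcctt
Adam8: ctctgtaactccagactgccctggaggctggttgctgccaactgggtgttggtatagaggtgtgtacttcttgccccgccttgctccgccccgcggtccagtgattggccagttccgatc
Adamts14: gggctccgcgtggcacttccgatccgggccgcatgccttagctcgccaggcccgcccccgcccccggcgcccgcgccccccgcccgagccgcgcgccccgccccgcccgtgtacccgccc

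All motifs were searched on both strands. The core bound by ETS factors was spelled CCGGAAG or, in another form, CAGGAAG. A site for GATA factors was taken as AGATAA, while CCCCACCC stood for the box bound by Kruppel-like factors. An AP-1 site was TGANTCA, and the TATA box was TATAAA. The Timp4 window held CAGGAAG on the opposite strand near its 5′ end, and the Adamts1 window held TATAAA shortly before the start. These letters were also found in 6.01% and 6.34% of all 32851 windows of the same length. None of the 6 was found in the windows of Adam8 and Adamts14, nor in those of Mmp15, Adamts9 and Adam15, which were searched in the same way. Among the 7 windows searched, the Timp4 window was lowest (48.3% GC, 0 CpG) and the Adamts14 window highest (85.0% GC, 21 CpG). The median over all windows was 54.2% GC and 3 CpG. The other Sca-1high windows (Mmp15, Adamts1, Adamts9 and Adam15) held 66.7% to 71.7% GC and 8 to 11 CpG. The Adam8 window, on the Sca-1low side, held less of both, with 5 CpG. GC and CpG thus did not separate the sides.

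Among the inhibitors, Timp4, a TIMP of restricted tissue distribution, was found in the Sca-1high libraries and was nearly absent from the Sca-1low libraries, and Timp3, which binds to the matrix and also inhibits ADAM17, was higher there by 2.17-fold. Timp4 (chr6:115241892-115252205, GRCm38) stood at 69.9, 212, 128 and 504 CPM in Sca-1high libraries 7, 13, 15 and 19, and at 0.0601, 0.140, 1.10, 0 and 0.0407 CPM in Sca-1low libraries 8, 10, 14, 16 and 22, the order of libraries used for all values below. All 4 Sca-1high libraries lay above every Sca-1low library, and their own levels spread several-fold, with library 19 highest and library 7 lowest. The log2 fold change was 9.67 ± 1.16 SE (adjusted p = 0.000146), and the value ran from 8.94 without Sca-1high library 19 to 11.96 without Sca-1low library 14, the only Sca-1low library above the floor of 3 counts. Timp4 shares 90 exon bases with Syn2 on the other strand, which was at 8.59 to 13.3 CPM in Sca-1high and 0 to 1.61 CPM in Sca-1low libraries, and since the use of strand in counting is not given in the sources used here, reads in that overlap cannot be assigned.

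Timp3 (chr10:86300372-86349506) had levels of 905, 839.6, 1164 and 1403 CPM in the Sca-1high libraries and 602, 462, 472, 298 and 654 CPM in the Sca-1low libraries. The groups did not overlap (log2 fold change 1.11 ± 0.29 SE, adjusted p = 0.00953), although the lowest Sca-1high library and the highest Sca-1low library were near each other, and the sign turned under endothelial scaling (-2.23). It lies within Syn3 and shares 1733 exon bases with it on the other strand, where Syn3 was counted at 231 to 385.5 CPM and 73.98 to 158.3 CPM.

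Timp2, which also takes part in the activation of pro-MMP2 at the cell surface, was at 417, 193, 252 and 384 CPM in Sca-1high and 269, 76.6, 110.0, 194 and 207 CPM in Sca-1low libraries, which overlapped, and was not called (log2 fold change 0.86 ± 0.38 SE, adjusted p = 0.0922). Timp1, an inducible inhibitor, was low in all libraries, with 12.7, 6.402, 10.9 and 5.46 CPM against 9.79, 0.838, 0.467, 15.5 and 1.38 CPM. It varied more within the Sca-1low fraction than between the fractions (log2 fold change 0.66 ± 0.92 SE, adjusted p = 0.583).

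Per kb of exon, which allows genes to be set beside each other, Timp3 was the most abundant inhibitor in 8 of 9 libraries, with 45.5% to 59.1% of the summed TIMP level in Sca-1high and 35.3% to 73.3% in Sca-1low cells. Timp4 made up 4.86% to 23.6% of that sum in Sca-1high and 0% to 0.215% in Sca-1low libraries. The summed TIMP level was 196 to 363 CPM per kb in Sca-1high and 77.4 to 154 CPM per kb in Sca-1low cells, so all Sca-1high libraries lay above all Sca-1low libraries.

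**Figure D2:**
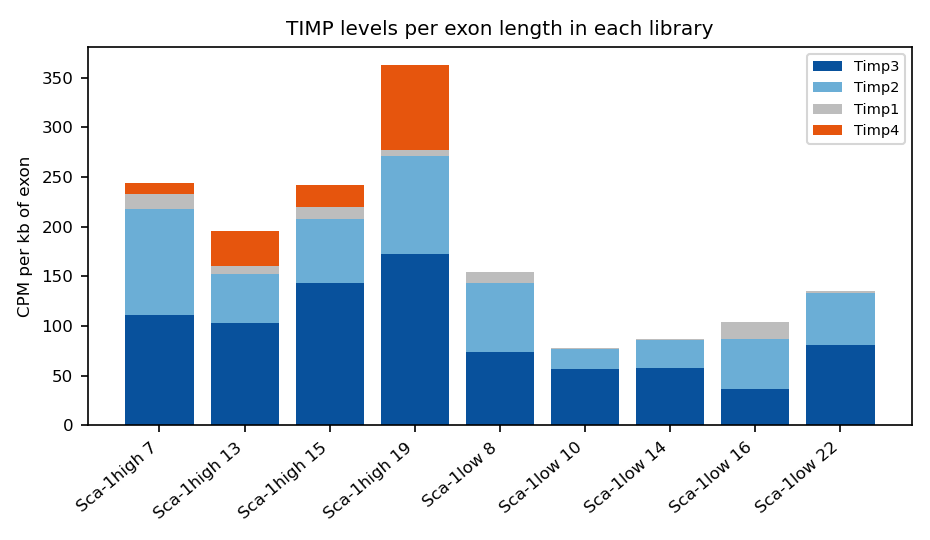
Level of each TIMP in CPM per kb of exon (y axis) in each of the 9 libraries (x axis), stacked. Timp4 is visible in all 4 Sca-1high libraries, at 11.9 to 85.5 CPM per kb, and in none of the 5 Sca-1low libraries, where it was at most 0.187 CPM per kb; under scaling to endothelial genes Timp1, Timp2 and Timp3 change sign and Timp4 stays higher in Sca-1high ECs.

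The ADAMTS proteoglycanases, which cut versican and aggrecan, were mostly higher in Sca-1high ECs. Of 7 such genes, 5 were tested. Adamts1, Adamts4, Adamts5 and Adamts9 were higher in Sca-1high ECs, by 26.5- to 63.6-fold, where 23.3% of all genes were higher. Under endothelial scaling Adamts1 and Adamts4 kept their call. Adamts5 (log2 fold change 1.17, adjusted p = 0.226) and Adamts9 (2.05, adjusted p = 0.0608) did not. Adamts15 was not called (log2 fold change 0.87, adjusted p = 0.698), Adamts8 did not pass the filter, and Adamts20 had no counts.

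Adamts1 (chr16:85793827-85803113), which cuts versican and is also known as an inhibitor of vessel growth, reached 696, 301, 1067 and 1113 CPM in the Sca-1high libraries against 16.6, 1.75, 12.4, 23.3 and 10.7 CPM in the Sca-1low libraries. Library 13 was the lowest Sca-1high library and still lay far above the highest Sca-1low library (log2 fold change 5.94 ± 0.71 SE, adjusted p = 0.000139). Adamts5 (chr16:85856173-85901828), an aggrecanase encoded 53059 bases from Adamts1 on the same strand of chromosome 16, was at 64.3, 108, 113 and 42.9 CPM and 0.661, 0.978, 5.01, 8.04 and 0.489 CPM. Here libraries 13 and 15 were highest and library 19 lowest, so the Sca-1high libraries were not ordered as for Adamts1 (log2 fold change 4.73 ± 0.84 SE, adjusted p = 0.00129).

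Adamts4 (chr1:171250421-171260637), the other main aggrecanase, was at 90.3, 65.9, 132 and 139 CPM in Sca-1high and 1.80, 1.26, 0.170, 2.79 and 2.28 CPM in Sca-1low cells. Every Sca-1high library was far above the highest Sca-1low library, library 16 (log2 fold change 5.99 ± 0.63 SE, adjusted p = 7.23e-05). Adamts9 (chr6:92772699-92943492), another protease that cuts versican, was at 51.9, 41.0, 56.7 and 58.9 CPM, with little spread, against 0.481, 0.279, 0.0424, 3.32 and 0.977 CPM. The log2 fold change was 5.61 ± 0.86 SE (adjusted p = 0.000559), and the value rose to 6.82 without Sca-1low library 16, the library in which Adamts9 was highest among the Sca-1low libraries. Leaving out the same library moved Adamts5 to 5.49. Adamts9 overlaps A730049H05Rik by 1381 exon bases on the other strand, and that transcript was at 9.94 to 13.5 CPM in Sca-1high and 0 to 0.398 CPM in Sca-1low cells.

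Summed per kb of exon, the tested proteoglycanases were at 83.4 to 247 CPM per kb in Sca-1high and 0.706 to 5.94 CPM per kb in Sca-1low libraries. Adamts1 made up 68.2% to 85.0% of that sum in Sca-1high and 46.6% to 82.4% in Sca-1low cells, so that its share overlapped while its level did not. Adamts8, another member of this group that is encoded 20109 bases from Adamts15 on chromosome 9, was below the filter, with 5, 14, 18 and 44 counts in the Sca-1high libraries and 0 in all Sca-1low libraries. Against a floor of 3 counts per library its mean level was at least 5.03-fold higher in Sca-1high ECs. The pericyte or smooth muscle list was at 982, 690.2, 1440 and 1701 CPM in Sca-1high libraries 7, 13, 15 and 19, the order in which Adamts1, Adamts4 and Adamts9 also stood (13 lowest, then 7, 15 and 19). The part of those cells in these levels was not tested.

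The procollagen N-proteinases remove the amino-terminal propeptide from fibrillar procollagens. Of 3 tested genes, 2 were lower in Sca-1high ECs, where 21.4% of all genes were lower. Adamts14 (chr10:61197112-61273438) was 58.1-fold and Adamts3 7.71-fold higher in Sca-1low cells, and Adamts2 was not called. Adamts14 had 0.545, 0, 1.07 and 0 CPM in the Sca-1high libraries, with no counts in libraries 13 and 19, and 45.1, 16.7, 9.97, 20.9 and 26.9 CPM in the Sca-1low libraries. No Sca-1high library came close to a Sca-1low library (log2 fold change -5.86 ± 1.14 SE, adjusted p = 0.00212, and -6.97 without Sca-1high library 15). Adamts3 was low in both fractions, at 0.0387 to 0.518 CPM against 0.933 to 4.85 CPM (log2 fold change -2.95 ± 0.78 SE, adjusted p = 0.0113), and with the title mark as a term its adjusted p was 0.0512.

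Adamts2 was at 60.3, 2.93, 25.0 and 25.6 CPM and 64.9, 18.6, 15.9, 30.9 and 30.7 CPM, a spread wider within each fraction than between them (log2 fold change -0.18 ± 0.68 SE, adjusted p = 0.852). With the title mark as a term it was called lower in Sca-1high ECs (log2 fold change -1.65, adjusted p = 0.0475). Summed per kb of exon, the 3 procollagen N-proteinases overlapped between the fractions. Their sum was 0.395 to 6.62 CPM per kb in Sca-1high and 3.79 to 16.03 CPM per kb in Sca-1low libraries. Adamts14 thus took 48.9% to 59.0% of the summed level per kb of these 3 genes in Sca-1low libraries and 0% to 6.90% in Sca-1high libraries, and Adamts2 took 79.4% to 99.7% in Sca-1high libraries. Their substrates Col1a1 and Col1a2, the chains of type I procollagen, were also higher in Sca-1low cells, at 27570.0, 6412, 2028, 12950.0 and 11840.0 CPM and 13060.0, 2690.0, 925, 5495 and 5797 CPM against 27.4 to 389 CPM and 22.8 to 245 CPM. Both collagens are on the stroma list, which stood at 45030, 10270, 3808, 21020 and 19070 CPM in the Sca-1low libraries. Adamts14 and Col1a1 were both highest in library 8 and lowest in library 14. That list was too, but these collagens made up most of its Sca-1low sums, so it is not a separate measure. Before TMM, Adamts14 had 751 and 661 counts in libraries 8 and 22, and 235 and 239 in libraries 14 and 10. The part of stromal RNA in the Adamts14 difference was not tested.

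Of the remaining ADAMTS genes, Adamts10 (chr17:33524204-33553782), which binds fibrillin, was higher in Sca-1high ECs by 2.80-fold, with 41.9, 26.4, 40.6 and 36.8 CPM against 18.0, 9.63, 12.3, 13.8 and 11.3 CPM. The groups did not overlap (log2 fold change 1.49 ± 0.24 SE, adjusted p = 0.000832), but the sign turned under endothelial scaling (-1.91). Adamts7, which cuts cartilage oligomeric matrix protein, was at 10.3 to 14.4 CPM against 0.978 to 2.52 CPM (log2 fold change 2.86 ± 0.34 SE, adjusted p = 0.000142, and -0.59 under endothelial scaling), with 122 exon bases shared with Tbc1d2b on the other strand. Adamts6 and Adamts17 were not called, with log2 fold changes of -0.68 and 1.58.

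Adamts12, the close relative of Adamts7, was below the filter. It had 60, 2, 36 and 55 counts in Sca-1high libraries and at most 3 in Sca-1low libraries, which puts its mean level at least 9.28-fold higher against the floor. The fractions overlapped, since Sca-1high library 13 (0.0681 CPM) lay below Sca-1low libraries 16 and 22 (0.0996 and 0.0814 CPM). Adamts18 had 9, 45, 11 and 34 counts against at most 3, at least 5.98-fold higher by the same reckoning. Adamts13, the protease that cuts von Willebrand factor multimers, was detected in few libraries, with 7 counts in Sca-1high library 7, 7 in Sca-1low library 16 and 1 in Sca-1low library 10, and could not be compared at this depth. Its substrate gene Vwf was at 52.9, 60.8, 46.0 and 143 CPM in Sca-1high and 1307, 1202, 529, 315 and 536 CPM in Sca-1low libraries (log2 fold change -3.36 ± 0.55 SE, adjusted p = 0.000844), and Vwf is also a megakaryocyte gene.

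**Figure D3:**
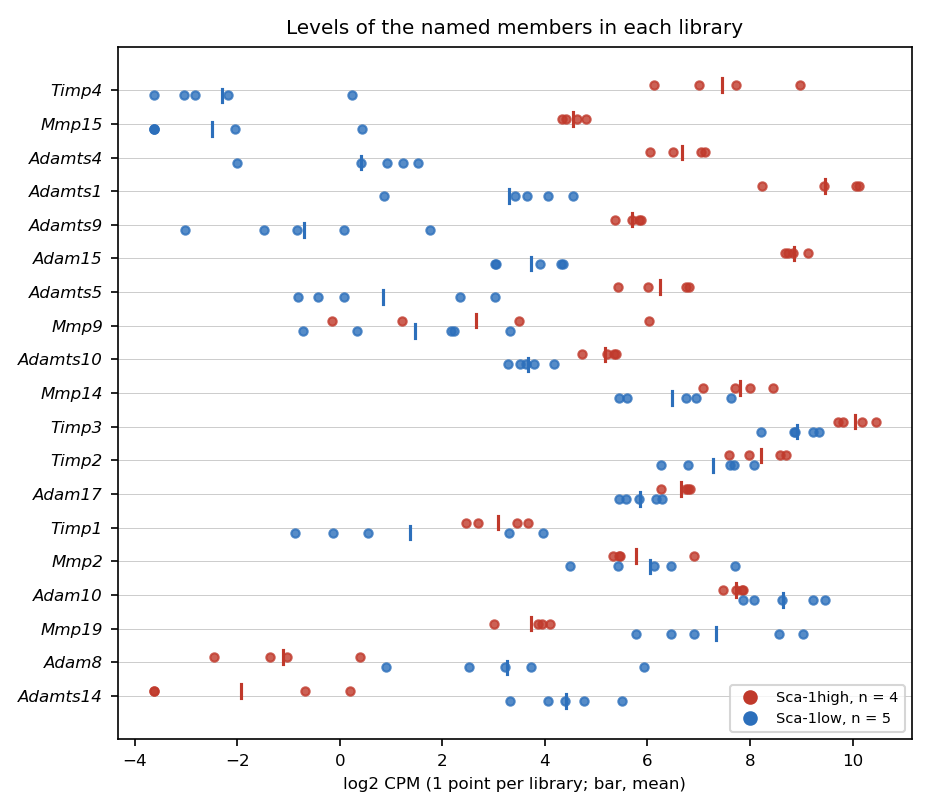
Level in log2 CPM (x axis) of the named members other than Adamts13 in each library (red, 4 Sca-1high; blue, 5 Sca-1low; vertical bars, means), ordered by fold change. The fractions do not overlap for Timp4, Mmp15, Adamts4, Adamts1, Adamts9, Adam15 and Adamts5 at the top and for Mmp19, Adam8 and Adamts14 at the bottom; Adamts10, Timp3 and Adam17, higher in Sca-1high ECs here, change sign when libraries are scaled to endothelial genes.

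Among the membrane proteases of the ADAM family, 8 of 9 were tested, and Adam12, Adam15 and Adam17 were higher and Adam8 and Adam10 lower in Sca-1high ECs. Adam15 (chr3:89338542-89349996), an ADAM with an integrin-binding disintegrin domain found at EC junctions, stood at 411, 430.2, 459 and 561 CPM against 14.9, 8.17, 8.02, 19.9 and 20.3 CPM. The Sca-1high libraries lay within a narrow range, and the whole range was far above that of the Sca-1low libraries (log2 fold change 5.03 ± 0.36 SE, adjusted p = 1.58e-05). It shares 1263 exon bases with 4731419I09Rik on the other strand, which was at 99.8 to 142 CPM in Sca-1high and 2.04 to 5.33 CPM in Sca-1low cells.

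Adam10 and Adam17 are the main sheddases of Notch receptors, cadherins and cytokine precursors, and both were expressed in every library. Adam10 (chr9:70678997-70780229) was at 231, 178, 233.5 and 211 CPM in Sca-1high and 598, 703, 270.1, 234.3 and 394 CPM in Sca-1low libraries. Sca-1low library 16 was level with the highest Sca-1high library, library 14 was only slightly above, and libraries 8 and 10 were well above. The log2 fold change was -1.04 ± 0.35 SE (adjusted p = 0.0322). This call was lost with library size as the only scaling (-0.51, adjusted p = 0.106), with libraries 15 and 16, whose titles share a number, as a block (-0.97, adjusted p = 0.0539), with the title mark as a term (-1.09, adjusted p = 0.104) and without any 1 of Sca-1high libraries 7, 13, 15 or 19 or Sca-1low library 8 (adjusted p from 0.0578 to 0.0897).

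Adam17 (chr12:21323509-21373632), the TNFα convertase, was at 107, 76.9, 109.9 and 114 CPM against 77.3, 72.0, 43.3, 56.7 and 47.5 CPM. The fractions overlapped, since Sca-1high library 13 was just below Sca-1low library 8 (log2 fold change 0.78 ± 0.23 SE, adjusted p = 0.0182). The call was lost under RLE size factors (adjusted p = 0.0613), with the title mark as a term (adjusted p = 0.104) and without Sca-1high library 15 or 19 or Sca-1low library 14 (adjusted p = 0.0534, 0.0503 and 0.0883), and the sign turned under endothelial scaling (-2.53). Adam17 shares 311 exon bases with Iah1 on the other strand, which was at 26.4 to 31.8 CPM in Sca-1high and 63.0 to 125.6 CPM in Sca-1low cells.

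Adam8 (chr7:139978932-139992562), a protease of leukocytes that sheds selectins, was at 0.409, 0.102, 0.311 and 1.24 CPM in the Sca-1high libraries and 13.2, 9.29, 5.64, 60.7 and 1.79 CPM in the Sca-1low libraries. Sca-1low library 16 stood far above the others, and library 22 was close to Sca-1high library 19 (log2 fold change -5.14 ± 1.16 SE, adjusted p = 0.00494, and -3.86 without library 16 or -6.02 without Sca-1high library 19). The basophil or mast cell list summed to 14260 CPM in library 16 and 631 to 2502 CPM in the other 4 Sca-1low libraries, against 139.7 to 271.6 CPM in Sca-1high libraries, and the general leukocyte list (10 of 12 genes lower) to 2024 to 4104 CPM in Sca-1low against 250 to 406.2 CPM in Sca-1high libraries. The neutrophil list was lowest in library 16 among the Sca-1low libraries, at 179.4 CPM against up to 804.3 CPM. The monocyte or macrophage list was lowest there too, at 841.6 CPM against up to 2484 CPM. The sort for CD45- cells is meant to leave out these cells, and their part in the Adam8 level was not tested. Adam12, a protease linked to growth factor shedding, was at 5.92 to 17.9 CPM against 0 to 1.22 CPM (log2 fold change 4.12 ± 0.84 SE, adjusted p = 0.00287).

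Adam9, Adam19 and Adam33 were not called in this family. Adam9 was at 114, 79.5, 97.4 and 88.4 CPM and 348, 579, 125, 61.1 and 99.3 CPM, so Sca-1low libraries 8 and 10 were several-fold above the rest while libraries 16 and 22 were within or below the Sca-1high range (log2 fold change -1.35 ± 0.60 SE, adjusted p = 0.0932). Adam19 had 25.4, 5.65, 14.2 and 4.34 CPM against 1.26, 0.419, 0, 0.0664 and 5.78 CPM, with Sca-1low library 22 inside the Sca-1high range (log2 fold change 3.03 ± 1.25 SE, adjusted p = 0.0724), and without library 22 it was called (4.88, adjusted p = 0.00959). Among the other ADAM genes, many of which are known from the testis, Adam4 was higher at a low level (0.648 to 1.70 CPM against 0 to 0.232 CPM, log2 fold change 4.09 ± 1.10 SE, adjusted p = 0.0121), with a value of 7.62 without Sca-1low library 16, the only Sca-1low library with a count. Adam22 and Adam32 were not called. Of the 22 untested ADAM genes, 15 had no count in any library, and Adam11, Adam1a, Adam23 and Adam5 had over 10 counts in at least 1 library.

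Transcripts of the partner proteins that carry Adam10 and Adam17 to the surface were taken from a list on which 2 of 8 tested genes were higher and 5 lower (23.3% and 21.4% of all genes). Tspan15, a tetraspanin that steers Adam10, was at 226, 234.3, 299.8 and 175 CPM in Sca-1high and 3.48, 0.0698, 6.66, 13.1 and 4.64 CPM in Sca-1low libraries (log2 fold change 5.37 ± 0.85 SE, adjusted p = 0.000653). Another Adam10 tetraspanin, Tspan33, was lower, at 0.750 to 5.28 CPM against 15.9 to 39.5 CPM (log2 fold change -3.21 ± 0.54 SE, adjusted p = 0.000941), and Tspan5 was higher (log2 fold change 2.32 ± 0.46 SE, adjusted p = 0.00232). Rhbdf2 (iRhom2), which Adam17 needs for its maturation in many cells, was lower in Sca-1high ECs, at 13.2 to 20.6 CPM against 33.2 to 301 CPM (log2 fold change -2.98 ± 0.70 SE, adjusted p = 0.00598), while Rhbdf1 was not called (0.64, adjusted p = 0.308).

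Of 25 membrane proteins known to be shed, 23 were tested, with 16 higher and 4 lower in Sca-1high ECs, where 23.3% and 21.4% of all genes were, and a median log2 fold change of 3.33. The largest differences were on both sides. Cdh5 (VE-cadherin) was at 234.8 to 297 CPM against 2.44 to 13.2 CPM (log2 fold change 5.20 ± 0.43 SE, adjusted p = 2.56e-05) and Icam1 at 1029 to 1544 CPM against 11.2 to 51.2 CPM (log2 fold change 5.13 ± 0.50 SE, adjusted p = 4.94e-05). Gp1ba and Gp6, platelet receptors that are shed by ADAM17 and ADAM10, were at 0.116 to 1.16 CPM and 0 to 0.375 CPM in Sca-1high libraries and 612 to 5108 CPM and 130.5 to 925 CPM in Sca-1low libraries. Several genes of this list are themselves endothelial or megakaryocyte markers.

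Of 13 tested MMP genes 4 were called (30.8%, against 44.8% of all genes), and the collagen-cutting Mmp2, Mmp9, Mmp13 and Mmp14 were not called. Of the membrane-type MMPs, Mmp15 (chr8:95352268-95375080) was at 24.5, 21.1, 20.1 and 28.0 CPM in Sca-1high and 1.26, 0, 0, 0 and 0.163 CPM in Sca-1low libraries. Its Sca-1high level hardly varied and 3 Sca-1low libraries had no count (log2 fold change 6.44 ± 1.18 SE, adjusted p = 0.00155, and 8.87 without Sca-1low library 8). Mmp24 was higher by 2.21-fold (log2 fold change 1.14 ± 0.30 SE, adjusted p = 0.00992), with 637 exon bases shared with BC029722 on the other strand a changed sign under endothelial scaling (-2.30) and an adjusted p of 0.0793 with the title mark as a term.

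Mmp14 (chr14:54431612-54445364), the membrane-type MMP that activates pro-MMP2, was at 348, 208, 257 and 135 CPM against 199, 48.3, 43.2, 123 and 108 CPM. The fractions overlapped, with Sca-1high library 19 below Sca-1low library 8, and it was not called (log2 fold change 1.18 ± 0.46 SE, adjusted p = 0.0583). The adjusted p fell to 0.0478 without the first of these libraries and to 0.0183 without the second. Mmp16 and Mmp17 were not called (-2.05 and 2.69), and Mmp25 was not tested, with 23, 53 and 16 counts in Sca-1high libraries 13, 15 and 19 and 7 in Sca-1low library 16.

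The gelatinases cut denatured collagen and the type IV collagen of basement membranes. Mmp2 (chr8:92827291-92853420) was at 119.5, 39.95, 43.8 and 43.2 CPM and 208, 43.1, 22.4, 87.4 and 70.0 CPM, with Sca-1high library 7 and Sca-1low library 8 highest in their fractions (log2 fold change -0.48 ± 0.60 SE, adjusted p = 0.539). Mmp9 (chr2:164940780-164955850) was at 65.5, 0.817, 2.25 and 11.2 CPM and 9.97, 1.19, 4.58, 4.42 and 0.529 CPM. Its Sca-1high mean rested on library 7, without which the log2 fold change went from 2.27 (SE 1.17, adjusted p = 0.139) to 0.21. The neutrophil list, whose cells are rich in Mmp9, summed to 58.9 CPM in that library and to 770.3 CPM in library 19, and its part in the Mmp9 levels was not tested.

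Mmp13, the main interstitial collagenase of the mouse, differed widely among the Sca-1high libraries, with 238, 3.17, 107 and 149 CPM, and was at 56.5, 6.07, 3.35, 109 and 28.3 CPM in the Sca-1low libraries (log2 fold change 1.61 ± 1.09 SE, adjusted p = 0.258). The stroma list was at 3155, 718.7, 1593 and 2444 CPM in the same Sca-1high libraries, and both were highest in library 7 and lowest in library 13. Adamts2, Mmp23, Mmp2, Timp2 and Mmp14 were also highest in library 7 among the Sca-1high libraries, and the first 4 of these were lowest in library 13. Mmp2, Mmp14, Timp2, Mmp23 and Adamts2 were highest in library 8 among the Sca-1low libraries, where the stroma list was highest too, while Mmp13 was highest in library 16. The TMM factor was 0.6713 for library 8 and 1.162 for library 16, at 24821147 and 25959818 total counts. Before that factor, Timp2 and Mmp14 were higher in library 16, with 5842 and 3706 counts against 4484 and 3311 in library 8. The part of stromal RNA in the levels of these members was not tested.

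**Figure D4:**
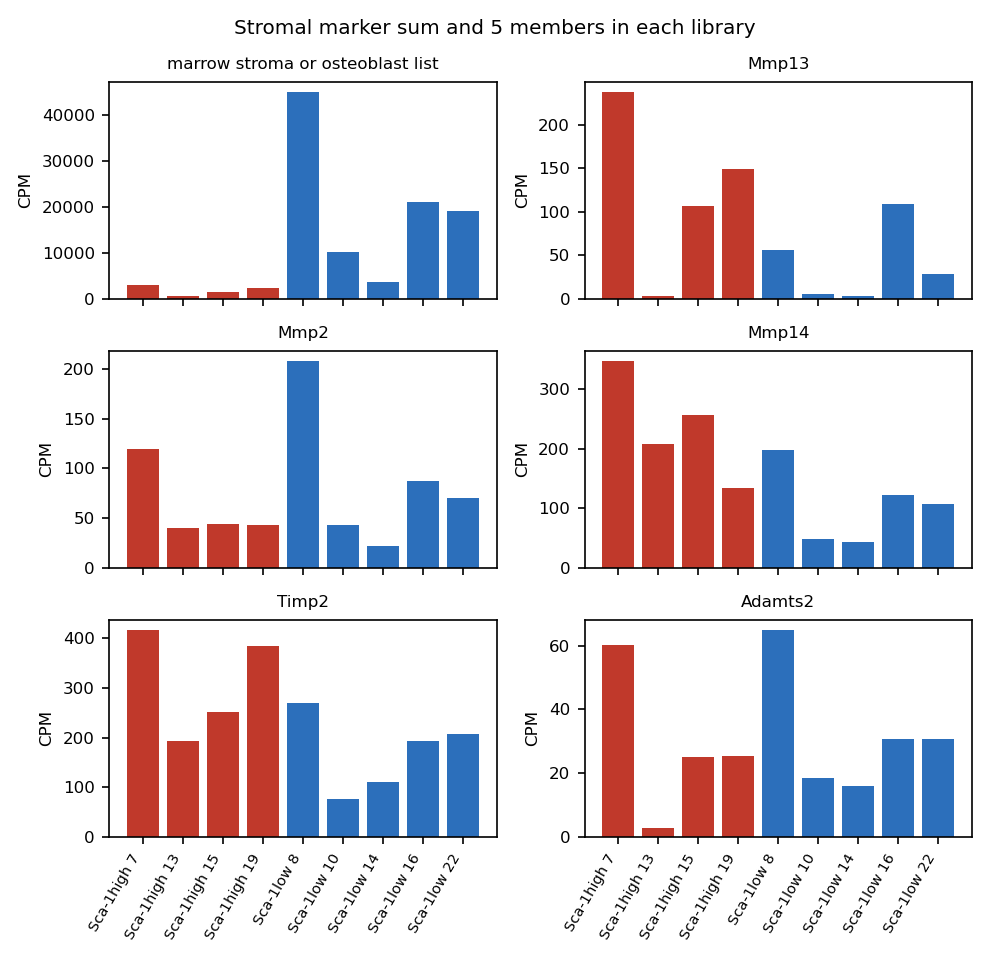
Summed CPM of the 12 marrow stroma or osteoblast genes and CPM of Mmp13, Mmp2, Mmp14, Timp2 and Adamts2 (y axes) in each library (x axis; red, Sca-1high; blue, Sca-1low). The stroma sum and Mmp13 fall from 3155 and 238 CPM in Sca-1high library 7 to 718.7 and 3.17 CPM in library 13. Mmp2, Mmp14, Timp2 and Adamts2 are highest in Sca-1low library 8. Before the TMM factor, Mmp14 and Timp2 were higher in library 16. None of the 5 members was called. Mmp13, Mmp14 and Timp2 turn from positive to negative fold changes when libraries are scaled to endothelial genes.

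Mmp19 (chr10:128790910-128800824), a secreted MMP that cuts basement membrane proteins, was the only MMP called lower in Sca-1high ECs. It was at 14.5, 17.1, 15.3 and 7.98 CPM in Sca-1high and 378, 521, 119.6, 54.9 and 87.5 CPM in Sca-1low libraries, with Sca-1low libraries 8 and 10 several-fold above libraries 16 and 22 (log2 fold change -4.08 ± 0.72 SE, adjusted p = 0.00127). The megakaryocyte list was at 90140, 111100, 53620, 26120 and 36790 CPM in these 5 libraries. Mmp19 and Adam9 stood in the same order as that list, from library 10 down to library 16, and its part in either level was not tested. Mmp19 shares 789 exon bases with Tmem198b on the other strand, which was at 23.7 to 55.4 CPM in Sca-1high and 14.3 to 81.3 CPM in Sca-1low cells.

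Mmp28, a secreted MMP of epithelia, was higher at a low level (2.49 to 6.505 CPM against 0.140 to 1.57 CPM, log2 fold change 2.32 ± 0.69 SE, adjusted p = 0.0197), but was not called without Sca-1high library 19 (adjusted p = 0.0621) or with the title mark as a term (0.0742), turned to -1.16 under endothelial scaling and shares 466 exon bases with 1700020L24Rik on the other strand. Mmp11, Mmp3 and Mmp23 were not called, with log2 fold changes of 1.43, 1.08 and -0.02. Of the 10 untested MMP rows, 6 had no counts, and besides Mmp25 only Mmp12 had over 10 counts in a library.

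Most MMPs and ADAMs are made as inactive zymogens, and of 11 tested genes for their activation and membrane control 6 were higher and 1 lower in Sca-1high ECs (23.3% and 21.4% of all genes). Plat (tissue plasminogen activator) was at 277, 201, 255 and 266 CPM against 18.1, 16.7, 20.5, 22.3 and 12.8 CPM (log2 fold change 3.79 ± 0.23 SE, adjusted p = 8.18e-06), and Plaur (the urokinase receptor) at 248 to 374 CPM against 8.59 to 36.5 CPM (log2 fold change 3.61 ± 0.40 SE, adjusted p = 9.93e-05). Of the proprotein convertases, Pcsk6 was lower (log2 fold change -3.17 ± 0.67 SE, adjusted p = 0.00337) and Pcsk5 was higher (log2 fold change 2.62 ± 0.93 SE, adjusted p = 0.0426), while Furin, the widespread convertase, was not called (-0.43, adjusted p = 0.282). The membrane-bound MMP inhibitor Reck was higher at 7.80 to 13.3 CPM against 1.18 to 7.75 CPM (adjusted p = 0.0213; named outside the rule for named genes after its values were seen).

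Of the matrix substrates, 8 of 19 tested genes were higher and 4 lower, where 23.3% and 21.4% of all genes were. The type IV collagen chain Col4a1 was at 818, 451, 840.1 and 312 CPM in Sca-1high and 31.4, 2.79, 2.54, 19.3 and 14.1 CPM in Sca-1low libraries (log2 fold change 5.43 ± 0.80 SE, adjusted p = 0.000431), and Thbs1, a protein of platelet granules, was at 19.5 to 82.6 CPM against 791 to 6294 CPM (log2 fold change -6.19 ± 0.85 SE, adjusted p = 0.000286). The 4 genes called lower on this list, Col1a1, Col1a2, Thbs1 and Vwf, are genes of type I collagen or of platelets and megakaryocytes. The 4 tested genes of the astacin proteases and procollagen enhancers, among them the procollagen C-proteinase Bmp1, had adjusted p-values of 0.179 to 0.807. Of 7 tested ADAMTS-like genes, 1 was higher, Papln, at 5.15, 4.67, 5.01 and 4.76 CPM with no counts in any Sca-1low library.

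Set side by side per kb of exon, the order of members differed between the fractions. In Sca-1high ECs the highest were Adamts1 at 150 ± 71.3 CPM per kb (SD, n = 4), Timp3 at 132.3 ± 31.7, Timp2 at 79.99 ± 27.3 and Adam15 at 75.7 ± 10.8, followed by Mmp13, Adam10, Mmp14 and Timp4 between 46.5 and 38.8. The means of Adamts1 and Timp3 lay within each other's spread, as did those of Timp2 and Adam15. In Sca-1low cells the highest were Adam10 at 89.5 ± 41.6 CPM per kb (SD, n = 5), Mmp19 at 65.7 ± 58.3, Timp3 at 61.1 ± 17.0, Adam9 at 58.9 ± 53.2 and Timp2 at 44.0 ± 19.9, and neighbours in this order did not differ beyond their spread. Timp3 and Timp2 were among the 5 highest in both fractions.

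**Figure D5:**
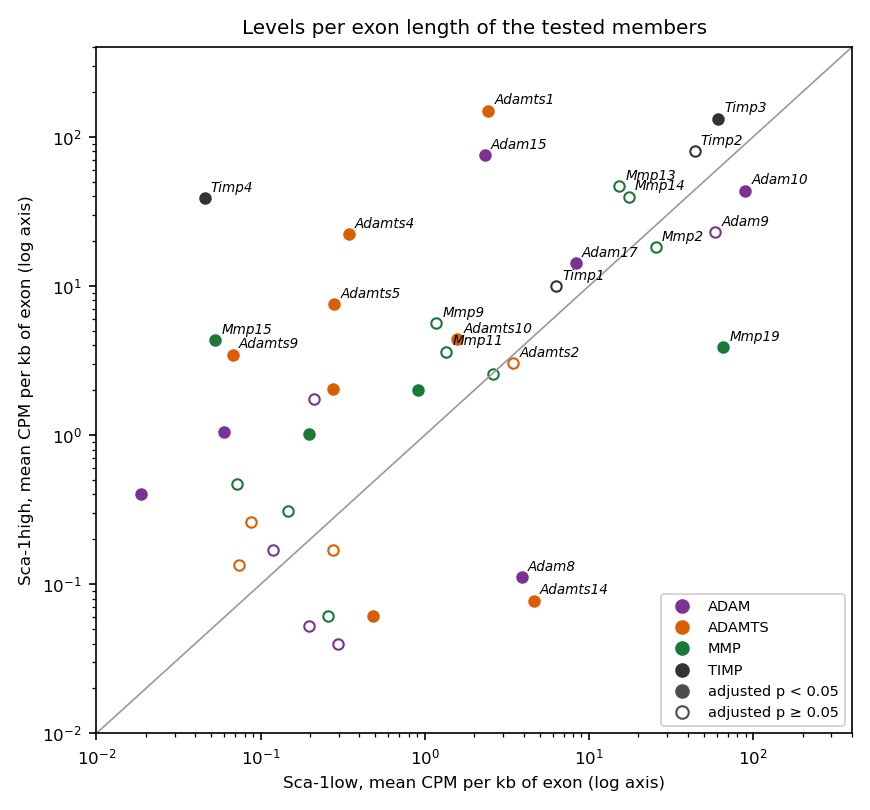
Mean level of the 40 tested members in CPM per kb of exon, Sca-1low (x axis, log scale, n = 5) against Sca-1high (y axis, log scale, n = 4), coloured by family; filled points had an adjusted p under 0.05 and the line marks equal levels. Adamts1, Adam15 and Timp4 lie far above the line and Mmp19, Adam8 and Adamts14 far below it; Adam17, Adamts10, Adamts7, Mmp24, Mmp28 and Timp3, above the line, change sign when libraries are scaled to endothelial genes, and Adam12 and Adam4 also when Esam and Tal1 are left out of that scaling.

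Chromosome 8 held 16 of the 79 rows, of which 9 had no count in any library and 4 were tested, and chromosome 9 held 13, of which 4 had no counts and 5 were tested. The rows without counts on chromosome 8 included Adam24, Adam25, Adam26a and Adam34, ADAM genes known from the testis. Some of them are close copies of each other, and reads shared between copies may not be counted, so a count of 0 there is uncertain.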

How the data were processed

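The 9 libraries were grouped by the deposited labels. The authors deposited 1 table of raw read counts (whole numbers, a row a gene), without normalization. The submitters' processing notes name STAR, featureCounts and mm10. Versions, settings and the use of strand are not given in the sources used here. There are no molecular identifiers, so depth gives counting error alone.

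The deposited counts went into edgeR 4.0.16 under R 4.3.3 (filterByExpr at its defaults, a count of at least 10 and a total of at least 15, TMM, quasi-likelihood test, no robust weighting, Benjamini-Hochberg over 15937 genes, threshold 0.05). The biological coefficient of variation was 0.549. Standard errors came from the F statistic, log2 CPM used a prior count of 2, and the floor was 3 counts per library. GENCODE M21 (GRCm38) gave positions and exon lengths, and 78 of 79 members were found in it. An item that bears on 1 member is not reported here. Of 78 member symbols, 48 had a RefSeq start window. Alternatives used DESeq2 1.42.0, limma 3.58.1 (voom), other scalings and filters, and fewer libraries, and 2 (endothelial scaling without Esam and Tal1, and the title mark as a term) were chosen after the values were seen. Plots were drawn with matplotlib 3.10.9.

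Members and lists were chosen with earlier results of these data known, and the lists were written from general knowledge. Members that were called, had a mean log2 CPM of 3 or more and did not overlap between fractions are given with every library, as are, whatever their result, Adam10, Adam17, Adamts13, Mmp2, Mmp9, Mmp14 and the 4 TIMPs. Other genes whose values are given for every library are there because a result turns on them. Of each related list, up to 4 genes with the largest absolute log2 fold change were named under the same conditions, and Rhbdf1, Furin, Bmp1, Papln and Vwf were added after their values were seen. The edgeR step was tested on simulated counts for 15937 genes with the spread of these libraries. It recovered 1.54%, 35.4% and 71% of genes changed by 1, 2 and 3 on the log2 scale, and called 5 unchanged genes. Only 65, 65 and 62 changed genes of these sizes were tested there, where 7137 genes were called in the data. The adjustment is stricter with so few changed genes, so these shares cannot be carried over to the data.

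The 2 libraries of each pair of consecutive end numbers (7 and 8, 13 and 14, 15 and 16) were checked for deviations in common. The titles of 15 and 16 also share another number, and those of 13 and 14 the mark CD452, which 22 carries too. Correlations of their deviations from the fraction means across genes were 0.147, 0.148 and 0.042. All other combinations of a Sca-1high and a Sca-1low library lay between -0.191 and 0.065, so the first 2 pairs were above every one of them. The labels do not say that the numbers pair the samples. The main fit therefore used no pairs, and a fit with the pairs as a block is given below.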

Additional observations from a re-analysis of the deposited data

Results flagged for a closer look

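In each fraction the highest and the lowest library of the named members were compared with the rest, and 2 of 38 groups held a library that stood apart, where chance gives about 1 in 20. Adam17 was at 6.27 log2 CPM in Sca-1high library 13, below the 6.74 to 6.83 of the other 3 Sca-1high libraries. Mmp2 was at 6.90 log2 CPM in Sca-1high library 7, above the 5.32 to 5.46 of the others.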

How the results depend on the processing

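RLE, upper-quartile and library-size scaling, no filter, robust dispersion, DESeq2 and limma voom each kept direction and side of the threshold for 34 to 40 of the 40 tested members, leaving out 1 library for 31 to 39, and a replicate block of libraries 15 and 16 for 38. With endothelial scaling 10 did, and 13403 genes were called in place of 7137. The log2 fold changes of Adam17 (-2.53), Adam19 (-0.565), Adam22 (-2.74), Adamts10 (-1.91), Adamts15 (-2.44), Adamts17 (-1.68), Adamts7 (-0.589), Mmp11 (-2.11), Mmp13 (-1.98), Mmp14 (-2.25), Mmp17 (-0.712), Mmp24 (-2.30), Mmp28 (-1.16), Mmp3 (-2.27), Mmp9 (-1.18), Timp1 (-2.88), Timp2 (-2.58) and Timp3 (-2.23) then became negative, which follows from that scaling's shift of all genes. Library size alone turned Adamts2 (0.261) and Mmp23 (0.41), no filter turned Mmp23 (0.006) and voom turned Adamts6 (0.555), and the cause was not tested. Leaving out 1 library gave ranges of -0.596 to 0.806 for Adam22, -0.654 to 1.28 for Adamts15, -0.847 to 0.203 for Adamts2, -1.02 to 0.058 for Mmp2, -0.848 to 0.423 for Mmp23 and -0.494 to 1.49 for Mmp3, none of which was called with all libraries. It gave 18 to 22 called members and 5957 to 6969 called genes. DESeq2 called 24 members, voom 24 and no filter 23. The median of all genes moved by more than 0.1 without Sca-1low library 8, 10 or 14 (-0.117, -0.108 and -0.146).

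The 3 pairs of consecutive end numbers, fitted as a replicate block on 6 libraries, gave 4340 called genes and 15 called members, against 5360 and 17 in the same 6 without the block. The block turned Adamts6 (0.385) and Mmp9 (-0.364), the 6 libraries without it turned Adam22 (-0.342), and the block of libraries 15 and 16 turned Adamts15 (-0.031). Of the 39 members not tested, 22 had no count in any library.

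Of the 2 alternatives chosen after the values were seen, endothelial scaling without Esam and Tal1 called 14475 genes and kept direction and side of the threshold for 8 members, and the sign changed for Adam12 (-0.589), Adam17 (-3.947), Adam19 (-1.382), Adam22 (-4.173), Adam4 (-0.043), Adamts10 (-3.136), Adamts15 (-3.774), Adamts17 (-2.969), Adamts7 (-1.658), Mmp11 (-3.089), Mmp13 (-2.769), Mmp14 (-3.387), Mmp17 (-1.692), Mmp24 (-3.431), Mmp28 (-2.102), Mmp3 (-3.52), Mmp9 (-2.428), Timp1 (-3.749), Timp2 (-3.663) and Timp3 (-3.53). The title mark as a term kept 30 members, and the sign changed for Adamts15 (-0.184), Mmp13 (-0.288), Mmp3 (-0.691) and Mmp9 (-0.574), none of them called with all libraries and no such term.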
